A study of Mus musculus with 6 samples.

Results

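A set of 9 genes encoding proteins that bind AU-rich elements or other sites in mRNA 3'UTRs were followed in immortalized mouse keratinocytes with and without the α3 integrin subunit: *Zfp36*, *Zfp36l1*, *Zfp36l2*, *Hnrnpd*, *Khsrp*, *Elavl1*, *Tia1*, *Tial1* and *Pum2*. They were taken by gene symbol from a table of read counts. All 9 were among the 49315 counted mouse genes, and all 9 passed the low-count filter that left 13704 genes for testing. The Control group was 3 libraries of MK-546, a keratinocyte line from skin that lacks α3 (MK-/-). The 3A group was 3 libraries of MK-546-ha3A (MK-/-:ha3), the same line carrying human α3. All cells were untreated and were grown on collagen-coated 10 cm dishes at 33 °C and 8% CO2. Each group was one line, so the presence of α3 and the history of the line cannot be told apart, and nothing in the labels says that the 3 libraries of a group came from separate cultures. The p-values measure the spread between these libraries, which may be technical.

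AU-rich elements are stretches built on the pentamer AUUUA in the 3'UTRs of many short-lived mRNAs, among them mRNAs of cytokines, growth factors and immediate early proteins. ZFP36 (tristetraprolin) and its relatives ZFP36L1 and ZFP36L2 bind these stretches through paired zinc fingers and recruit deadenylases, which shorten the poly(A) tail and start decay. KHSRP also promotes decay, HNRNPD (AUF1) can promote decay or stabilise depending on the target, and ELAVL1 (HuR) mostly stabilises the mRNAs it binds. TIA1 and TIAL1 (TIAR) restrain translation and gather in stress granules, and PUM2, a Pumilio protein, binds a separate 3'UTR motif and represses its targets.

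Several of these binding proteins have mRNAs that hold the same elements. The following sites, taken from GENCODE M21 transcripts (GRCm38, the assembly of mm10), are shown because 4 of the 9 genes hold the element that their own protein family binds, and 2 hold the Pumilio motif. Each is written as DNA of the sense strand with 8 bases on either side, and capitals mark the AU-rich nonamer TTATTTATT or the Pumilio motif TGTANATA. All lie in the 3'UTR within 1 exon.
Zfp36, chr7:28376953-28376977, minus strand: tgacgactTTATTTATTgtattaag
Zfp36l1, chr12:80108169-80108193, minus strand: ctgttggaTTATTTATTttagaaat
Zfp36l2, chr17:84184916-84184940, minus strand: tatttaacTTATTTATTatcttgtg
Elavl1, chr8:4285790-4285814, minus strand: catgaaaaTTATTTATTtatttatt
Tial1, chr7:128441741-128441764, minus strand: ataaacatTGTAAATAttgaataa
Pum2, chr12:8750157-8750180, plus strand: tatagagaTGTATATAgaattata
Pum2, chr12:8750410-8750433, plus strand: tacagaatTGTATATActtataat

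The nonamer was found once in each 3'UTR of the *Zfp36* family. It was found 8 times, mostly as overlapping matches, in that of *Elavl1*, where the first began at base 3794 of 4218. *Hnrnpd*, *Khsrp*, *Tia1*, *Tial1* and *Pum2* held no match to it in the longest annotated 3'UTR. The shorter heptamer TATTTAT, which lies within the nonamer, occurred in 7 of the 9, all but *Hnrnpd* and *Khsrp*, and the pentamer ATTTA in all 9. The search covered the sense strand only, as suits an RNA element. Of the 11934 tested genes with an annotated 3'UTR, 8.42% held the nonamer, 30.3% the heptamer and 26.5% the Pumilio motif. The share with the pentamer is not given here, so its presence in all 9 cannot be set against other genes. The 3'UTRs of the 9 ran from 774 to 5429 bases, beside a median of 1167 over those genes. The shares are not matched for length. A match is a description of letters, and the read counts do not show which 3' end a transcript used.

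**Figure D1:**
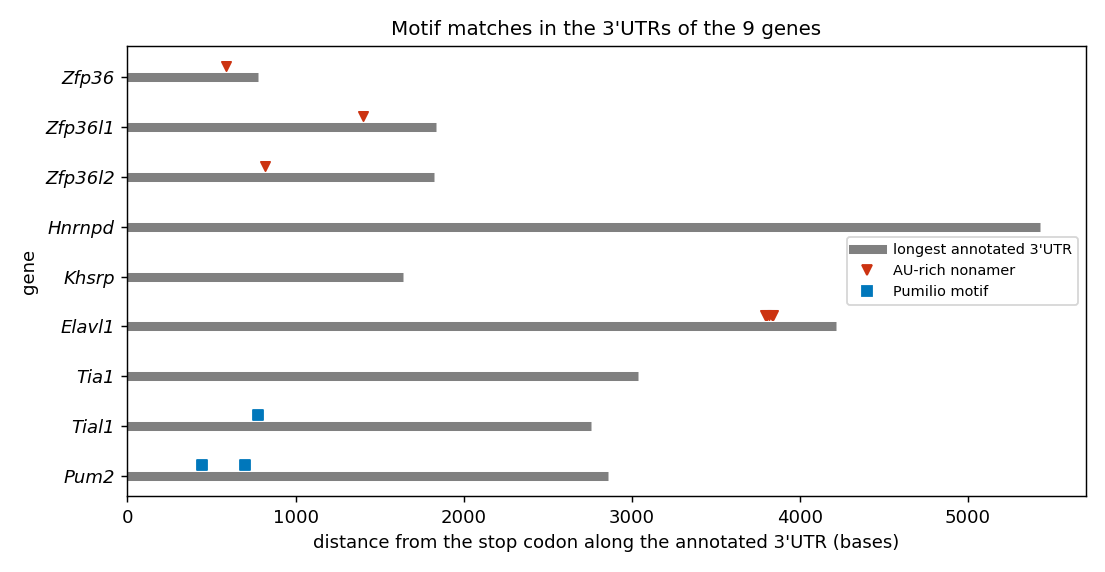
Map of the longest annotated 3'UTR of each gene, with distance from the stop codon in bases on the horizontal axis. Red triangles mark the AU-rich nonamer and blue squares the Pumilio motif. The 8 matches of *Elavl1* lie close together near the end of its 4218-base 3'UTR, and the single match of *Zfp36* lies at base 589 of 774.

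Total counts per library ranged from 25634204 to 36245240. Levels are given as CPM, read counts divided by library size and scaled by the trimmed mean of M-values (TMM). *Itga3*, the gene altered in these lines, had 31.9 to 45.1 CPM in Control and, in 3A, 57.5 to 80.4 CPM, but mouse counts check neither the deletion nor the human transgene. The 13 keratinocyte markers summed to 11100 to 13800 CPM in Control and, in 3A, to 8720 to 11100 CPM. Of the markers of other cell types, 7 fibroblast genes summed to 2.05 to 3.40 CPM over all libraries, 6 melanocyte genes to 0.659 to 1.71 CPM and 5 endothelial genes to 0.412 to 0.946 CPM. The 6 leukocyte genes summed to 9.83 to 20.2 CPM, nearly all of it *Cd68*, while the pan-leukocyte gene *Ptprc* averaged at most 0.02 CPM. By chi-square of the counts per degree of freedom, 3A 1 stood apart from 3A 2 (75.2) and 3A 3 (97.3), beside 14.5 between 3A 2 and 3A 3. Control 1 stood further apart from the other Control libraries (237 and 291, beside 17.3 between Control 2 and Control 3). By this measure it lay nearer to 3A 1, 3A 2 and 3A 3 (150, 91.6 and 110). Its correlation of log2 CPM was 0.9567 and 0.9526 with Control 2 and Control 3, and 0.9458 to 0.9554 with 3A. Mitochondrially encoded genes took 1.17% of the counts of Control 1. The share was 4.19% and 4.73% in Control 2 and Control 3 and 1.24% to 1.59% in 3A. The part of this share in the differences below was not tested.

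*Zfp36* fell and *Tia1* rose in 3A, and the other 7 genes did not pass the test. Calls rest on the quasi-likelihood test of edgeR, with p-values adjusted by Benjamini and Hochberg's method over all 13704 genes and a threshold of 0.05. The 2 genes are 22.2% of the 9, beside 14.9% of all tested genes (7.52% higher and 7.39% lower). For 5 of the 9 (55.6%) the libraries of the groups did not overlap, beside 36.1% of all tested genes. Without Control 1, 3 of the 9 were higher and 2 lower, when 52% of all tested genes were called. Without Control 2, Control 3, 3A 2 or 3A 3 none of the 9 was called by edgeR, with 2 higher and 1 lower at an unadjusted p under 0.05. Those fits called only 4.72% to 6.98% of all tested genes. At an unadjusted p under 0.05 they had 1440 to 1611 genes higher and 1479 to 1786 lower, of 14053 to 14133 tested. DESeq2 with 6 libraries called 4 of the 9, beside 12.7% of the 25868 genes it tested. That fit had no low-count filter, so its share has another base than the 14.9% and includes many scarce genes. The median log2 fold change of the 9 was 0.22, beside -0.02 over all tested genes.

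**Figure D2:**
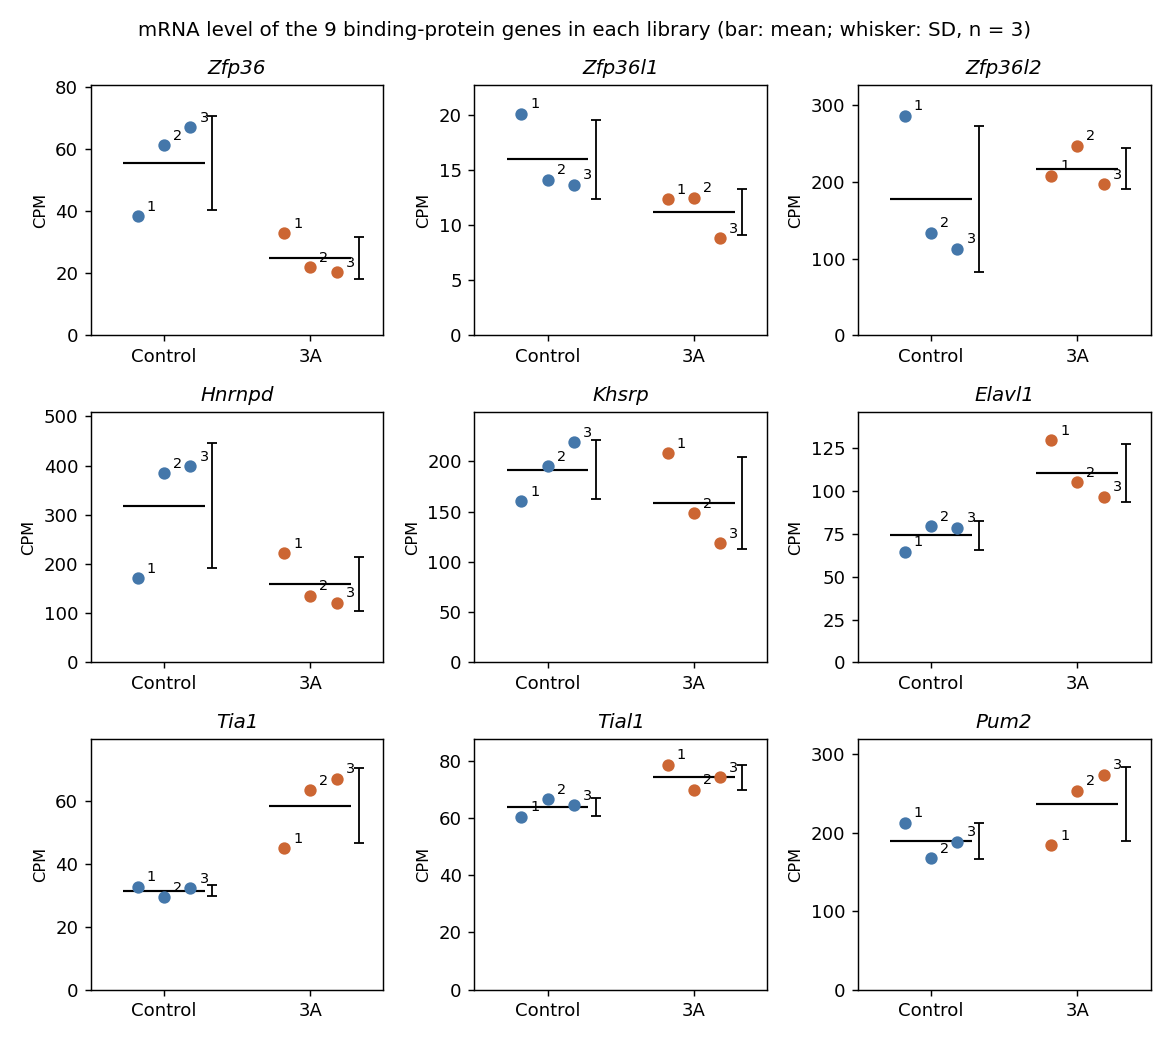
CPM of each gene in the 6 libraries, on axes that start at 0. Points carry the library number, bars show the mean and whiskers the SD (n = 3). *Zfp36* lies between 38.4 and 67.0 CPM in Control, and between 20.4 and 32.8 CPM in 3A, and Control 1 lies apart from the other Control libraries for *Hnrnpd* and *Zfp36l2*.

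Among the decay-promoting proteins, *Zfp36* (ENSMUSG00000044786, chromosome 7, 28376784 to 28380253, minus strand) had 38.4, 61.2 and 67.0 CPM in Control 1, 2 and 3. In 3A 1, 2 and 3 it had 32.8, 21.9 and 20.4 CPM. All 3A libraries lay below all Control libraries, but the gap between Control 1 and 3A 1 was small. The mean fell from 55.5 ± 15.1 to 25.01 ± 6.77 CPM (SD, n = 3), or -1.15 (SE 0.28) as log2 fold change (95% confidence interval -1.80 to -0.50, edgeR adjusted p = 0.0345). The call was lost without Control 2 (edgeR adjusted p = 0.114), Control 3 (0.105), 3A 2 (0.151) or 3A 3 (0.146), with log2 fold changes between -1.08 and -0.99. It held without Control 1 (-1.35, edgeR adjusted p = 0.00204) and without 3A 1 (-1.38, edgeR adjusted p = 0.0391).

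*Zfp36l1* (chromosome 12, 80107754 to 80113013, minus strand), the paralog with the lowest level, had 20.1, 14.1 and 13.7 CPM in Control 1, 2 and 3. In 3A 1, 2 and 3 it had 12.4, 12.5 and 8.83 CPM. The groups did not overlap, with Control 1 the highest, yet the difference did not pass (log2 fold change -0.51, 95% confidence interval -1.04 to 0.03, edgeR adjusted p = 0.162). Without Control 1 the log2 fold change was -0.30. A lincRNA gene on the opposite strand, *Gm26669*, covers 1672 of the 2990 exon bases of *Zfp36l1* and had at most 6 counts in a library. No source used here gives the strand setting of the counting, and reads in that stretch may have been lost or divided.

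*Zfp36l2* (chromosome 17, 84183931 to 84187947, minus strand) was the most abundant of the 3 paralogs. It had 286, 134 and 113 CPM across Control 1 to 3 and 208, 247 and 197 CPM across 3A 1 to 3. Control 1 was the highest of all 6 libraries, whereas Control 2 and Control 3 were the lowest, so the groups overlapped. The log2 fold change was 0.29 (95% confidence interval -0.53 to 1.11, edgeR adjusted p = 0.573). Without Control 1 it was 0.83 and passed (edgeR adjusted p = 0.00413), while without Control 2 it was 0.12 and without Control 3 it was 0.05. The direction of *Zfp36l2* was therefore opposite to that of *Zfp36* in every fit, while its size changed with each Control library left out.

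*Hnrnpd* (chromosome 5, 99955935 to 99978938, minus strand) had 172, 384 and 398 CPM across Control 1 to 3 and 221, 135 and 121 CPM across 3A 1 to 3. Control 2 and Control 3 lay above every other library, and Control 1 lay within the range of 3A. Group means were 318 ± 127 CPM (Control) and 159 ± 54.2 CPM (3A; SD, n = 3), which gave a log2 fold change of -0.998 (SE 0.37, 95% confidence interval -1.87 to -0.13) that did not pass (edgeR adjusted p = 0.109). It passed without Control 1 (-1.29, edgeR adjusted p = 0.00403) and by DESeq2 with 6 libraries (DESeq2 adjusted p = 0.0460).

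*Khsrp* (chromosome 17, 57021051 to 57031522, minus strand) had 161, 195 and 219 CPM across Control 1 to 3 and 208, 148 and 119 CPM across 3A 1 to 3. The groups overlapped, because 3A 1 lay within the range of Control and Control 1 was the lowest Control library. The log2 fold change of -0.27 was within the spread of the libraries (95% confidence interval -0.83 to 0.28, edgeR adjusted p = 0.432). It was -0.51 without 3A 1 and -0.093 without 3A 3, and was not called in either case.

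*Elavl1*, the gene of the stabilising protein HuR (chromosome 8, 4285382 to 4325413, minus strand), had 64.6, 79.4 and 78.7 CPM in Control 1, 2 and 3. In 3A 1, 2 and 3 it had 129, 105 and 96.6 CPM. Every 3A library lay above every Control library, and Control 1 was the lowest of all. Group means were 74.2 ± 8.34 CPM (Control) and 110 ± 17.1 CPM (3A; SD, n = 3), which gave a log2 fold change of 0.57 (SE 0.17, 95% confidence interval 0.17 to 0.98) that narrowly missed the threshold (edgeR adjusted p = 0.0651). *Elavl1* did pass by DESeq2 (DESeq2 adjusted p = 0.0240), with library size alone as the scaling (edgeR adjusted p = 0.0449) and without Control 1 (edgeR adjusted p = 0.0307).

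*Tia1* (ENSMUSG00000071337, chromosome 6, 86404219 to 86433405, plus strand) had 32.7, 29.4 and 32.1 CPM across Control 1 to 3 and 45.0, 63.4 and 67.0 CPM across 3A 1 to 3. The Control libraries lay close together, and 3A 1 was the lowest of 3A but above all of them. The mean rose from 31.4 ± 1.75 to 58.5 ± 11.8 CPM (SD, n = 3), or 0.90 (SE 0.19) as log2 fold change (95% confidence interval 0.46 to 1.33, edgeR adjusted p = 0.0214). The call was lost without Control 2 (edgeR adjusted p = 0.100), Control 3 (0.0718), 3A 2 (0.112) or 3A 3 (0.0980), with log2 fold changes from 0.80 to 0.91. It held without Control 1 (0.94, edgeR adjusted p = 0.00592) and without 3A 1 (1.06, edgeR adjusted p = 0.0163).

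*Tial1*, its closest relative (chromosome 7, 128439777 to 128461717, minus strand), had 60.4, 66.5 and 64.6 CPM in Control 1, 2 and 3. In 3A 1, 2 and 3 it had 78.7, 69.8 and 74.2 CPM. The groups did not overlap, but the difference was small and did not pass (log2 fold change 0.22, 95% confidence interval -0.10 to 0.53, edgeR adjusted p = 0.279). The whole interval lies below the fitted value of *Tia1*, although the difference between both genes was not itself tested.

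*Pum2* (chromosome 12, 8674134 to 8752581, plus strand) had 213, 168 and 188 CPM across Control 1 to 3 and 184, 253 and 274 CPM across 3A 1 to 3. Here 3A 1 fell within the range of Control while 3A 2 and 3A 3 lay above it. The log2 fold change was 0.32 (95% confidence interval -0.13 to 0.78, edgeR adjusted p = 0.270).

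**Figure D3:**
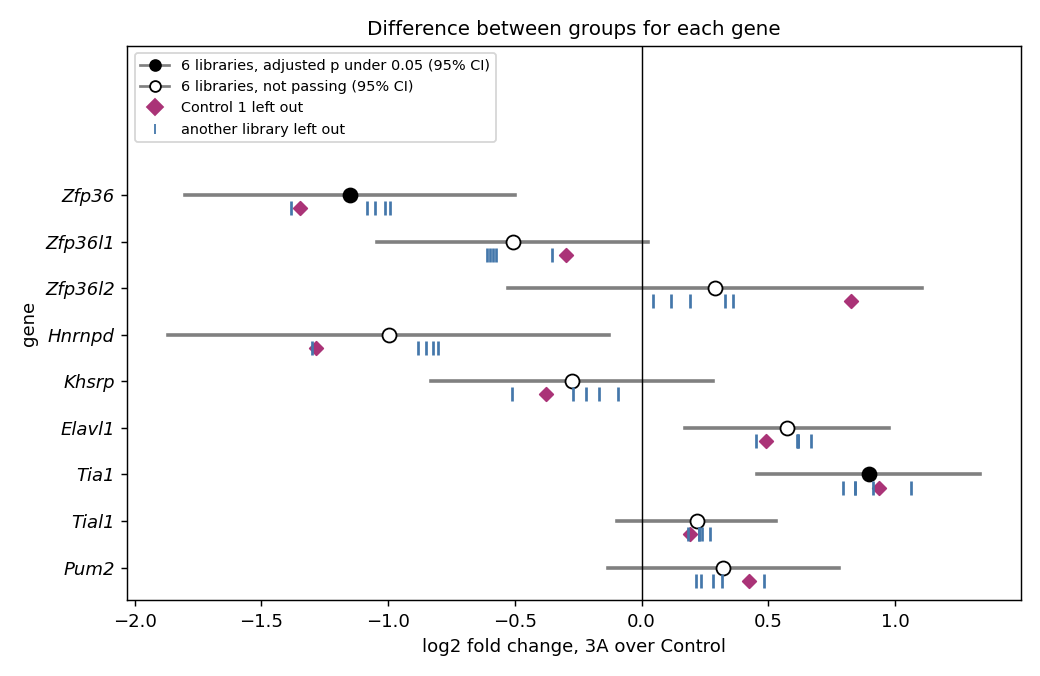
Log2 fold change of 3A over Control for the 9 genes, with 95% confidence intervals. Filled circles passed the test with 6 libraries, diamonds leave out Control 1 and ticks leave out another library. *Zfp36* at -1.15 and *Tia1* at 0.90 are the filled circles, and the diamond of *Zfp36l2* at 0.83 lies far to the right of its other values.

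Per kilobase of merged exon length, which allows levels of different genes to be compared, the mean level in Control was 50.3 CPM per kb for *Zfp36l2*, 44.4 for *Khsrp*, 43.3 for *Hnrnpd* and 26.1 for *Pum2*. It was 16.0 CPM per kb for *Zfp36*, 9.25 for *Tial1*, 7.16 for *Elavl1*, 5.34 for *Zfp36l1* and 1.99 for *Tia1*. The libraries of the first 4 genes overlapped from each to the next, as did those of *Elavl1* and *Zfp36l1*. *Zfp36* stood clear of *Pum2* above it and *Tial1* below it. In 3A, *Zfp36* had 7.21 CPM per kb and came after *Tial1* (10.8) and *Elavl1* (10.6), overlapping with the latter. *Tia1* (3.71) reached the level of *Zfp36l1* (3.75). Merged exon length counts every annotated exon, 15750 bases for *Tia1*, so it understates genes with long rarely used exons.

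Ratios within a library do not depend on the scaling, and 5 were computed to show how the balance between stabilising, decay-promoting and related proteins' mRNAs varied. These pairs were chosen with the values known, so the ratios are a description. *Elavl1* to *Zfp36*, per kilobase, was 0.564, 0.434 and 0.393 in Control 1, 2 and 3. In 3A 1, 2 and 3 it was 1.32, 1.61 and 1.59. The groups did not overlap for this ratio, and Control 1 lay with its own group. That the ratio lay below 1 in Control and above 1 in 3A depends on the exon lengths used. These are 10363 bases for *Elavl1* and 3470 for *Zfp36*. By CPM alone, *Elavl1* lay above *Zfp36* in every library of both groups. *Tia1* to *Tial1* was 0.237, 0.194 and 0.218 across the Control libraries and 0.251, 0.398 and 0.396 across those of 3A, where 3A 1 lay just above Control 1. *Zfp36l2* to *Zfp36* was 7.33, 2.15 and 1.66 across the Control libraries and 6.23, 11.1 and 9.48 across those of 3A. Control 1 exceeded 3A 1 for this ratio, so the groups overlapped.

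**Figure D4:**
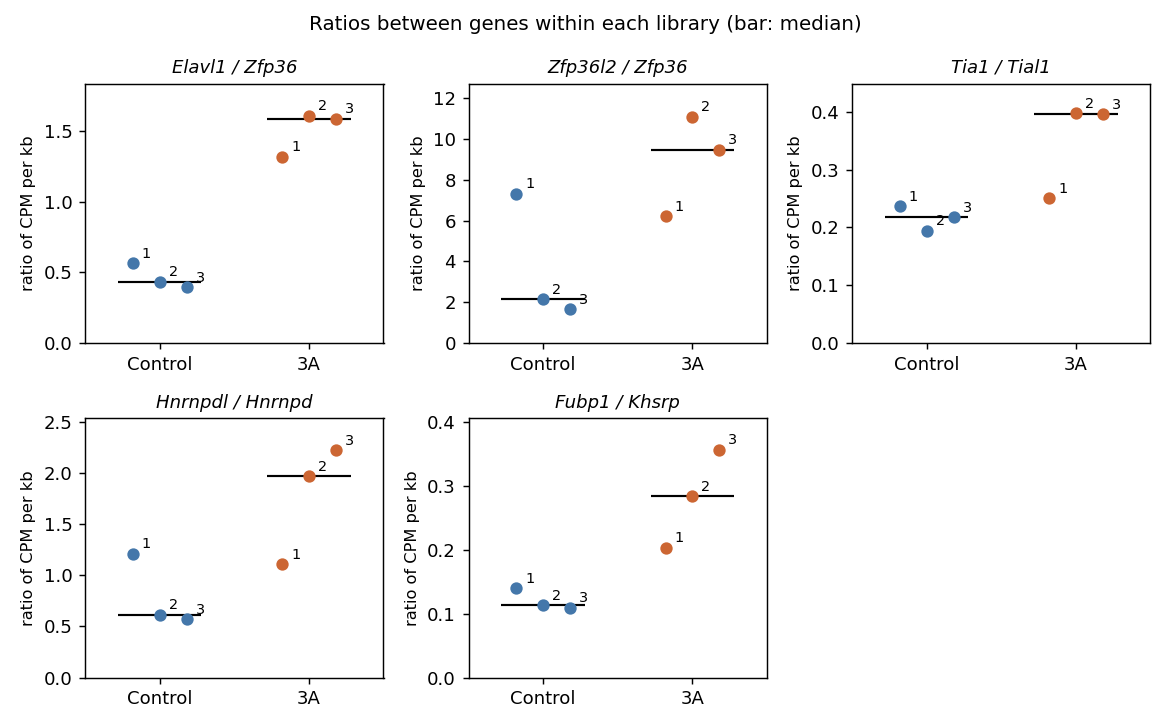
Ratios of CPM per kb between pairs of genes in each library, on axes that start at 0, with the median of each group as a bar and the library number beside each point. *Elavl1* to *Zfp36* separates the groups, from at most 0.564 in Control to at least 1.32 in 3A, while *Zfp36l2* to *Zfp36* and *Hnrnpdl* to *Hnrnpd* overlap through Control 1 and 3A 1.

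Paralogs of the 9 genes gave a comparison within each family. *Fubp1*, a relative of *Khsrp*, was close to constant within each group, with 80.9, 78.9 and 85.5 CPM across the Control libraries and 152, 151 and 152 CPM across those of 3A. Its log2 fold change was 0.89 with an SE of 0.13 (edgeR adjusted p = 0.00541) and was called with any library left out (edgeR adjusted p from 0.00138 to 0.0441). *Fubp1* to *Khsrp* per kilobase was 0.109 to 0.140 in Control and 0.203 to 0.356 in 3A. *Fubp3* (log2 fold change 0.29, edgeR adjusted p = 0.262), *Hnrnpdl* (0.22, edgeR adjusted p = 0.272) and *Hnrnpab* (0.06, edgeR adjusted p = 0.899) did not pass. Of the neuronal ELAVL genes, *Elavl2* averaged 2.16 CPM in Control and, in 3A, 1.04 CPM (log2 fold change -1.06, edgeR adjusted p = 0.0726), and *Elavl3* and *Elavl4* averaged under 1 CPM and were not tested. *Zfp36l3*, the placental paralog, had 0 counts in every library.

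Of 50 tested genes for other 3'UTR binding proteins, out of 55 listed, 5 rose (10.0%) and 2 fell (4.00%), beside 7.52% and 7.39% of all tested genes. Their median log2 fold change was 0.13. Besides *Fubp1*, the genes that rose were *Lin28b*, which blocks let-7 maturation (1.33), *Samd4*, a Smaug translational repressor (0.95), *Qk*, the STAR protein quaking (0.73), and *G3bp1*, a stress granule nucleator that works alongside TIA1 (0.59). *Pcbp3*, a poly(C)-binding protein, fell, with means of 45.7 ± 2.89 CPM in Control and of 25.3 ± 1.24 CPM in 3A (SD, n = 3 each; log2 fold change -0.85, edgeR adjusted p = 0.00827). *Rbms3* fell from 116 to 13 summed counts. *Fubp1* and *Rbms3* were the 2 of these 7 called with any library left out, and without Control 1 the list had 21 higher and 12 lower, as against 52% of all tested genes called. *Pcbp3* lost the call without 3A 2 or 3A 3, and *Lin28b* without these, Control 2 or Control 3. *Qk*, *G3bp1* and *Samd4* lost it without any library other than Control 1. Without Control 2, Control 3, 3A 2 or 3A 3 the list had 1 higher and 1 to 2 lower. These were 4% to 5.88% of it, beside 4.72% to 6.98% of all tested genes.

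Of 39 deadenylation, decapping and exosome genes, the machinery that these proteins recruit, 1 rose (2.56%) and 3 fell (7.69%), beside 7.52% and 7.39% of all tested genes, with a median log2 fold change of 0.01. *Cnot6*, a catalytic deadenylase of the CCR4-NOT complex that ZFP36 proteins recruit, rose, with means of 71.0 ± 13.96 CPM in Control and of 135 ± 33.99 CPM in 3A (SD, n = 3 each; log2 fold change 0.93, edgeR adjusted p = 0.0442). *Cnot4* (-0.73), *Tob2* (-0.65) and *Btg1* (-0.86) fell, the last 2 encoding adaptors between deadenylases and their targets. None of the 4 was called without Control 2, Control 3, 3A 2 or 3A 3, when 4.72% to 6.98% of all tested genes were called. Without Control 1 the list had 11 higher and 14 lower (64.1%, beside 52% of all tested genes).

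The p38 pathway acts on ZFP36 through the kinase MK2, and phosphorylated ZFP36 is less able to start decay. Among 27 kinase, phosphatase and adaptor genes that act on these proteins, 1 rose and 1 fell (3.70% each), beside 7.52% and 7.39% of all tested genes, with a median log2 fold change of 0.27. *Mapk12*, encoding p38γ, had 131, 125 and 92 counts in Control 1, 2 and 3 and 1 count in each 3A library. Its summed counts were 149-fold lower in 3A (95% exact binomial counting interval 50.6 to 726), and it was called with any library left out. *Mapk13*, encoding p38δ, rose, with means of 31.8 ± 4.07 CPM in Control and of 50.6 ± 5.604 CPM in 3A (SD, n = 3 each; log2 fold change 0.67, edgeR adjusted p = 0.0374), a call that held without Control 1 (edgeR adjusted p = 0.0128) and was lost without any other library (up to edgeR adjusted p = 0.129). The MK2 gene *Mapkapk2* did not pass (log2 fold change -0.35, edgeR adjusted p = 0.135). Nor did the p38 genes *Mapk14* (0.50, edgeR adjusted p = 0.429) and *Mapk11* (0.27, edgeR adjusted p = 0.292). Whether the difference in *Mapk12* bears on ZFP36 was not tested. Without Control 1 the list had 13 higher and 3 lower (59.3%, beside 52% of all tested genes).

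**Figure D5:**
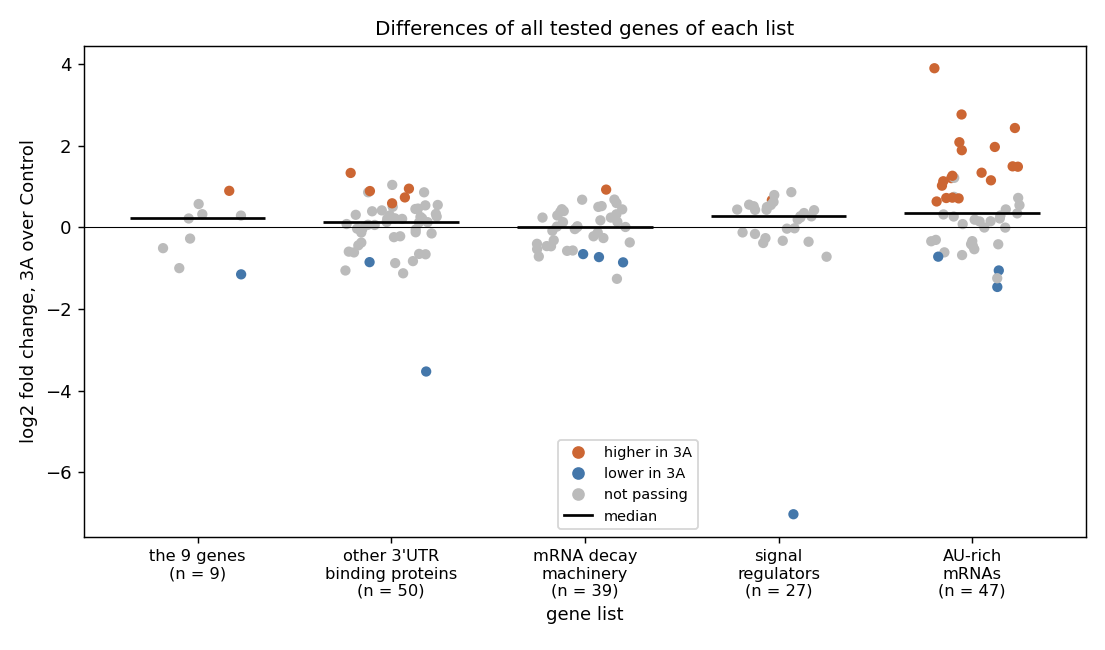
Log2 fold change of 3A over Control for every tested gene of 5 lists, with 1 point a gene, coloured by the test result, and the list median as a bar. The AU-rich mRNAs have 18 orange points (higher) and 3 blue points (lower), and the lowest point of the signal regulators is *Mapk12*, whose fitted value rests on 3 counts in 3A.

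mRNAs widely described as carrying AU-rich elements were more often higher than lower in 3A. Of 47 tested, out of 54 listed, 18 rose (38.3%) and 3 fell (6.38%), beside 7.52% and 7.39% of all tested genes, with a median log2 fold change of 0.34. The list was put together with earlier results of these lines known, several members included, so its counts are a description. Those that rose with small p included *Areg*, an EGF receptor ligand, the urokinase gene *Plau*, the interleukin-1 genes *Il1a* and *Il1b* and the chemokine gene *Cxcl5*. *Areg* had 3.96, 4.75 and 5.14 CPM across Control 1 to 3 and 25.8, 23.1 and 25.9 CPM across 3A 1 to 3, so the groups lay far apart (log2 fold change 2.43, SE 0.17, edgeR adjusted p = 0.000467). *Il1b* was scarce, with 10 counts over Control and 194 over 3A, a ratio of 15.1 (95% exact binomial counting interval 8.04 to 32.0). *Ptgs2*, encoding cyclooxygenase-2, had 88.3, 109 and 119 CPM across the Control libraries and 34.6, 35.5 and 44.7 CPM across those of 3A (log2 fold change -1.46, edgeR adjusted p = 0.00331). *Ccl2* (-1.05) and *Pim1* (-0.72) fell as well. Of the 21 called genes, 11 kept the call with any 1 library left out, and the other 10 lost the call without Control 2, among other libraries. Without Control 1 the list had 25 higher and 7 lower (68.1%, beside 52% of all tested genes). Left without Control 2, Control 3, 3A 2 or 3A 3, it had 9 to 11 higher and 2 lower. These were 23.4% to 27.7% of its tested genes, beside 4.72% to 6.98% of all tested genes.

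The nonamer occurred in genes of this list that rose and in genes that fell, but with only 3 that fell a link to direction cannot be judged. It was found in 6 of the 18 that rose (*Areg*, *Csf2*, *Fos*, *Serpinb2*, *Bcl2* and *Ereg*), in 2 of the 3 that fell (*Ptgs2* and *Pim1*) and in 12 of the 26 that were not called. *Mmp9*, the gelatinase gene whose polyadenylation the study addressed, was among the last, with 13.1, 10.3 and 9.34 CPM across the Control libraries and 10.3, 10.05 and 12.4 CPM across those of 3A. Sites of a gene that rose, one that fell and one that was not called are shown side by side to let the flanks be compared.
Areg, higher in 3A, chr5:91148384-91148408, plus strand: tttaagtgTTATTTATTttatagct
Ptgs2, lower in 3A, chr1:150105792-150105816, plus strand: gaccatatTTATTTATTtatgtgaa
Mmp9, not called, chr2:164955296-164955320, plus strand: cagcccttTTATTTATTatgtatga
The *Mmp9* site begins at base 398 of a 3'UTR of 944 bases, that of *Ptgs2* at base 18 of 2445 and that of *Areg* at base 213 of 253. These 3 genes differ in where the element lies along the 3'UTR and share the 9 capital letters.

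Across all tested genes with a 3'UTR, carrying the nonamer went with little difference in how often a gene was called. Of 1005 genes with it, 87 were higher (8.66%) and 69 lower (6.87%), beside 7.62% and 8.16% of the 10929 genes without it. Their median log2 fold changes were 0.08 and -0.01, and their median 3'UTR lengths 2339 and 1079 bases. Among genes with 3'UTRs of 1831 bases or more, both medians were 0.09, with 14.1% called with the nonamer and 15.5% without it. From 693 to 1830 bases the medians were 0.09 and 0.04, with 16.9% and 16.5% called. Among those of at most 692 bases they were 0.03 with the nonamer (104 genes) and -0.16 without it (3874 genes). In this shortest class 20.2% were called with the nonamer (15 higher, 6 lower) and 15.3% without it (261 higher, 333 lower). For the Pumilio motif, 8.20% of 3158 genes were higher and 8.33% lower, beside 7.53% and 7.95% of 8776 genes without it, with medians of 0.07 and -0.03. In the long 3'UTRs these medians were 0.10 and 0.07, with 16.7% called with the Pumilio motif and 14% without it. From 693 to 1830 bases they were 0.06 and 0.04, with 17.8% and 16.2% called. In the shortest class they were -0.08 (362 genes) and -0.17 (3616 genes), with 12.4% and 15.8% called. The order of the called shares thus changed with length. The part of 3'UTR length in these values was not tested further.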

How the data were processed

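The authors deposited raw read counts per mouse Ensembl gene, 1 column per library, not normalized. Per the submitters' processing notes, Trim Galore, featureCounts, edgeR and limma were used, with the builds mm10, GRCh38 and hg38 named without roles. No source used here gives the aligner, annotation release or strand setting. Symbols, positions, exon lengths and 3'UTRs came from GENCODE M21 (GRCm38), which matched 49056 IDs and left 259 unmatched. A gene's 3'UTR is the longest one annotated for its protein-coding transcripts.

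The test was that of edgeR 4.0.16 under R 4.3.3 (group-wise filterByExpr, TMM scaling, estimateDisp, glmQLFit, glmQLFTest, group as the only term), with Benjamini-Hochberg adjustment over 13704 genes at 0.05. The fit was tested on simulated data. Each standard error is the log2 fold change divided by the root of F. Alternatives were other scalings and filters, DESeq2 1.42.0, limma-voom (limma 3.58.1), the replicate number as a block and each library left out. No 2 libraries of a group agreed within sampling noise (chi-square per degree of freedom at least 14.5). Members, lists and pairs were chosen with earlier results of these data known. All 9 members were named, with up to 6 called genes in each direction from each list by smallest p and the members' paralogs. *Csf2*, *Fos*, *Serpinb2*, *Bcl2*, *Ereg*, *Mapkapk2*, *Mapk14* and *Mapk11* were named after their values were seen. Counting intervals cover counting error only. Transcripts at least 90% identical over 300 bases to a member came from genes with at most 6 counts in a library. Protein sequences were not used here. Some genes that the naming rule took are left out of the text.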

Additional observations from a re-analysis of the deposited data

How the results depend on the processing

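The log2 fold change of each of the 9 genes kept its sign in all 14 alternatives (126 values), with 10 calls lost, all of *Zfp36* or *Tia1*, and 6 gained, of *Elavl1*, *Hnrnpd* and *Zfp36l2*. With 6 libraries 2 of the 9 genes were called, 7 other 3'UTR binding proteins, 21 AU-rich mRNAs, 4 decay genes, 2 signal regulators and 2044 of all genes. DESeq2, without the low-count filter, called 4 of the 9, 13 other binding proteins, 6 signal regulators and 3290 of 25868 genes. With library size alone 2 decay genes were called. Leaving out each library in turn gave 0 to 5 of the 9, 2 to 33 other binding proteins, 11 to 32 AU-rich mRNAs, 0 to 25 decay genes, 1 to 16 signal regulators and 664 to 7441 of all genes. The highest of each came without Control 1. Where edgeR called 0 of the 9, without Control 2, Control 3, 3A 2 or 3A 3, it had 2 higher and 1 lower at an unadjusted p under 0.05. These fits called 4.72% to 6.98% of all tested genes. At the unadjusted threshold they had 1440 to 1611 of all tested genes higher and 1479 to 1786 lower, of 14053 to 14133 tested. For the decay genes edgeR then had 1 higher and 3 to 4 lower at the unadjusted threshold. The cause was not tested. Same-numbered libraries did not deviate together (r from -0.66 to -0.375 across genes). Because Control 1 and 3A 1 each stood apart within their group, this cannot decide whether the replicate numbers pair the samples. With the replicate block, edgeR called 0 of the 9, 0 other binding proteins, 4 AU-rich mRNAs, 0 decay genes, 1 signal regulator and 288 of all genes. At an unadjusted p under 0.05 the 9 then had 1 higher and 1 lower. The other binding proteins had 6 and 3, and the decay genes 2 and 3. Of all 13704 tested genes, 1350 were higher and 1303 lower at that threshold. The lowest count of any of the 9 genes in a library was 317, and the effect of depth on the calls was not tested.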

Other observations

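Control 1 lay nearer to the mean of 3A than to the mean of Control 2 and Control 3, on the log2 CPM scale, for 5 of the 9 genes (55.6%) and for 8359 of the 13704 tested genes (61.0%). The 5 were *Zfp36*, *Zfp36l2*, *Hnrnpd*, *Khsrp* and *Pum2*. For *Hnrnpd* the distances were 1.19 to the other Control libraries and 0.159 to 3A, and for *Zfp36l2* they were 1.22 and 0.406. For *Tia1* they were 0.0877 and 0.817, for *Elavl1* 0.291 and 0.762, for *Tial1* 0.117 and 0.295 and for *Zfp36l1* 0.532 and 0.856, so for these 4 genes Control 1 lay nearer to its own group. The heptamer TATTTAT was found in 37 of the 47 tested AU-rich mRNAs, beside 30.3% of all tested genes with a 3'UTR, not matched for length. The pentamer ATTTA was found in 45, and its share over all genes is not given here.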
